A study of Mus musculus with 6 samples.

Results

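The 10 genes described here belong to the eicosanoid pathway, which makes and senses the prostaglandins and leukotrienes. They are the enzymes Pla2g4a, Ptgs1, Ptgs2, Ptges, Hpgds, Tbxas1 and Alox5, the 5-lipoxygenase activating protein Alox5ap, and the prostaglandin E2 receptors Ptger2 and Ptger4. They were chosen by symbol from the 55453 genes of the count table, and all 10 were listed and had enough counts to be tested. The study compared bone marrow-derived macrophages (BMDM) that lack the catalytic subunit of the phosphatase PP2A with BMDM that have it, to ask how PP2Ac affects STING signaling. Of the 10, 3 differed between the genotypes in the main fit, which left out the replicate numbers of the libraries. The prostaglandin E2 receptor Ptger2 was lower in PP2A-KO, while the receptor Ptger4 and the phospholipase Pla2g4a were higher. A fit that blocked on the replicate numbers called Ptgs2 higher as well.

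Eicosanoids are made on demand from arachidonic acid. Cytosolic phospholipase A2 (Pla2g4a) frees the fatty acid from membranes, cyclooxygenase 1 (Ptgs1) or the inducible cyclooxygenase 2 (Ptgs2) turns it into prostaglandin H2, and terminal synthases make prostaglandin E2 (Ptges), prostaglandin D2 (Hpgds) or thromboxane (Tbxas1) from it. In the other branch Alox5, helped by Alox5ap, starts the leukotrienes. Macrophages are a known source of these lipids, and they sense prostaglandin E2 through EP2 (Ptger2) and EP4 (Ptger4), receptors that raise cAMP.

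The 3 PP2A-KO libraries came from LysMcre PP2Ac fl/fl mice and the 3 WT libraries from WT mice, all on the C57BL/6 strain. In the knockout mice cre is driven by the Lyz2 promoter, which is active in the myeloid lineage, and removes exon 1 of Ppp2ca. The WT mice came from another source than the knockout line, so that genotype and source cannot be told apart. Mice were 6 to 10 weeks old and of both sexes. Marrow was grown in medium with 20 ng/mL M-CSF or 30% L929 conditioned medium, and BMDM were used at day 7. The labels give no treatment. Both groups were taken as treated with the STING agonist cGAMP at 10 µg/mL for 4 hours, as the legend to the study's RNA-Seq describes, so that the values below compare genotypes under stimulation and hold no unstimulated level. The study's statistics section describes its cell experiments in general as done in biological triplicate. Neither it nor the labels say whether libraries of a genotype came from separate mice, and p-values measure the spread between these libraries. Poly(A) RNA was read with paired ends of 150 bases.

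Between 35257156 and 47390899 reads were counted on genes in a library, and 3 counts, the smallest signal told apart from 0 here, equaled 0.0604 to 0.0908 CPM (counts scaled to library size). Ppp2ca, the targeted gene, had 47, 33 and 38 counts in PP2A-KO and 10654, 8913 and 8279 in WT. The macrophage label held by the sum of its markers. The 8 macrophage markers summed to 8620 to 8730 CPM in PP2A-KO and to 7275 to 7836 CPM in WT. Lyz2, whose promoter drives cre, was the lowest of the 8, at 7.87 to 10.1 CPM in PP2A-KO and 6.58 to 8.32 CPM in WT. Why the count of Lyz2 was so far below those of the other macrophage markers was not tested. At an adjusted p under 0.05 in edgeR, 2 of the 8 (Fcgr1 and Mertk) were called higher in PP2A-KO, beside 18.1% of all genes tested. Markers of other cells summed to far less but differed between the genotypes. The 8 stromal markers summed to 25.97 to 39.1 CPM in PP2A-KO and 85.8 to 131.6 CPM in WT. By the same rule 7 of the 7 tested were called lower, beside 19.0% of all genes tested. Platelet markers summed to 6.87 to 9.02 CPM in PP2A-KO and 11.7 to 14.0 CPM in WT, and 3 of the 5 tested were called lower, beside the same 19.0%. Mast cell and basophil markers summed to 15.3 to 20.99 CPM in PP2A-KO and 6.65 to 10.2 CPM in WT, most of it from Hdc (13.6 to 19.0 CPM in PP2A-KO and 4.91 to 8.91 CPM in WT) and the rest nearly all from Kit (0.818 to 1.49 and 1.13 to 1.72 CPM). Of the other 9 markers on that list, Tpsb2, Mcpt4 and Cma1 were at 0 in all libraries and the others had at most 14 counts in a library. Neutrophil markers reached 1.06 to 1.09 CPM in PP2A-KO and 0.825 to 1.17 CPM in WT, dendritic cell markers 1.46 to 2.36 CPM and 1.41 to 1.83 CPM, and lymphocyte markers 0.825 to 1.46 CPM and 0.501 to 0.643 CPM. In these bulk samples, fewer cells of a type and less RNA per cell cannot be told apart.

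Of the 10 genes, 2 were higher and 1 was lower in PP2A-KO at an adjusted p (FDR) under 0.05 in edgeR's quasi-likelihood test, and 7 were not called. Over all 13680 genes tested, 18.1% were called higher and 19.0% lower, or 37.1% either way, so that the 3 of 10 called here are no more than the background share. The split over all genes depended on scaling, with 2470 higher and 2604 lower in the main fit against 2095 and 3356 with upper-quartile factors. The 3 libraries of PP2A-KO did not overlap those of WT for 3 of the 10 genes, beside 50.9% of all genes tested. None of the 10 had a log2 fold change beyond 1 at FDR under 0.01, a rule that 3.36% of all genes tested passed upwards and 2.99% downwards. The median log2 fold change of the 10 was 0.05, beside -0.02 over all genes tested. Without PP2A-KO replicate 1, or without PP2A-KO replicate 2, 1 of the 10 rather than 2 was called higher. With a block on the replicate number, with no filter on low counts, or without WT replicate 1, it was 3, with Ptgs2 added. The block called 24.4% of all genes tested higher.

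**Figure D1:**
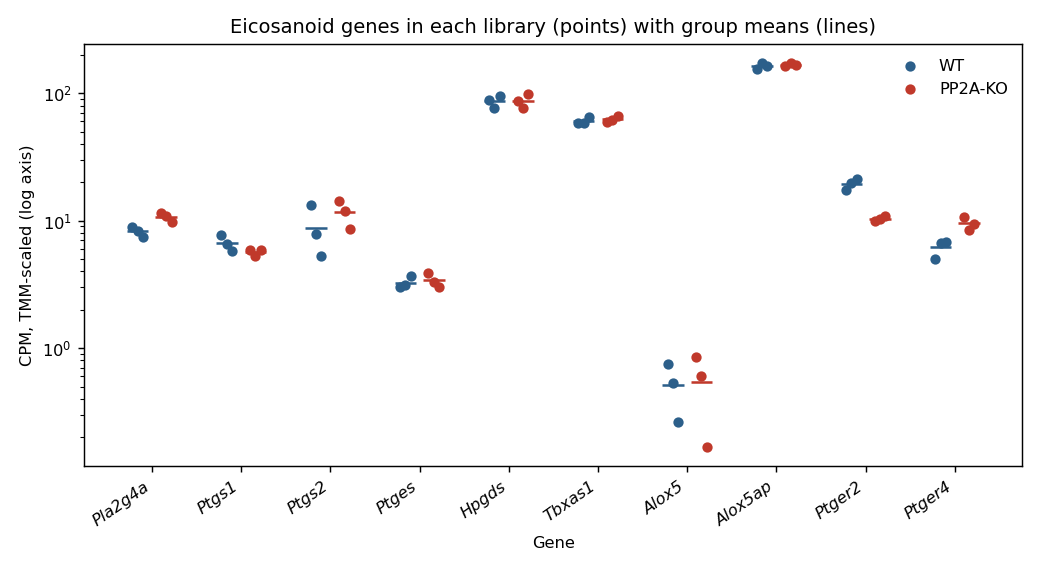
CPM of the 10 eicosanoid genes (log axis) in each library, with 3 PP2A-KO points in red and 3 WT points in blue for each gene, and group means as short lines. For Ptger2 the PP2A-KO points (9.87 to 10.9 CPM) lie below the WT points (17.5 to 21.2 CPM), for Ptger4 and Pla2g4a they lie above, and for the other 7 genes the groups overlap.

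Levels between genes were compared as CPM per kb of exon. Alox5ap was the most abundant of the 10, at 118.0 per kb in PP2A-KO and 115.0 in WT, followed in both genotypes by Hpgds (13.6 and 13.5) and Tbxas1 (6.90 and 6.66). Alox5, the enzyme that Alox5ap serves, was the lowest at 0.132 and 0.125 per kb. The genes in between changed places. In WT the order was Ptger2 (3.75), Ptgs2 (1.92), Ptgs1 (1.73), Pla2g4a (1.29), Ptger4 (0.928) and Ptges (0.831), with the libraries of Ptgs2 overlapping those of Ptgs1 and those of Ptger4 overlapping those of Ptges. In PP2A-KO the order was Ptgs2 (2.53), Ptger2 (1.99), Pla2g4a (1.68), Ptgs1 (1.47), Ptger4 (1.44) and Ptges (0.864), with Ptgs2 overlapping Ptger2 and Ptgs1 overlapping Ptger4. All other neighbors in these orders were separate in every library. These orders depend on the length used, here the union of all annotated exons of a gene. That length was 6391 bases for Pla2g4a, against 3453 in its longest transcript, and 4580 against 4453 for Ptgs2. With the longest transcript, Ptgs2 fell below Ptgs1 in WT, at a mean of 44.2% of the RNA of both.

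The sequences just before the RNA starts of Ptgs2, Pla2g4a, Ptger2 and Ptger4 are shown because these are the inducible enzyme and the 3 genes called. Each is the 250 bases that precede the RefSeq start in GRCm38.p6, 5′ to 3′ on the strand of the gene, with motif matches in capitals. Their positions are chr1:150099781-150100030 (forward strand) for Ptgs2, chr1:149961291-149961540 (reverse) for Pla2g4a, chr14:44987861-44988110 (forward) for Ptger2 and chr15:5244188-5244437 (reverse) for Ptger4.
Ptgs2: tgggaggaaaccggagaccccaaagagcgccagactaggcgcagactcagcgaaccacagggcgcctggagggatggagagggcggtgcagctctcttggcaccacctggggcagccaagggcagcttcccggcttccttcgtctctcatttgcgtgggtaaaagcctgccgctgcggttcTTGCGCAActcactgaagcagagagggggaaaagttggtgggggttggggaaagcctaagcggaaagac
Pla2g4a: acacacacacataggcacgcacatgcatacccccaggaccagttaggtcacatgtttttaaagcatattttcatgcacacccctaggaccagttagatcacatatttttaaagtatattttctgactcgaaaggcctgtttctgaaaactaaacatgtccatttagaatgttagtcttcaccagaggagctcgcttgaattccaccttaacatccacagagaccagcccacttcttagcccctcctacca
Ptger2: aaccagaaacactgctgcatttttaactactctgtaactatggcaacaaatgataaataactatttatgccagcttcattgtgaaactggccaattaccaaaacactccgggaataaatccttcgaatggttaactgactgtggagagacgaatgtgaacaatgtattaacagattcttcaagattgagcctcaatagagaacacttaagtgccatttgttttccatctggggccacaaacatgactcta
Ptger4: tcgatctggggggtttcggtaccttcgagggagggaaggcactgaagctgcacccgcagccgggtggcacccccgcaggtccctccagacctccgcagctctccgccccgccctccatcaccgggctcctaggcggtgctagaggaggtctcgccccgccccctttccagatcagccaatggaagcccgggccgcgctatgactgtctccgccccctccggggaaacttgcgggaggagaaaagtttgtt

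The 6 motifs searched on both strands of these windows were TGACG (the core of a cAMP response element), TGANTCA (AP-1), TTGCNNAA (C/EBP), GAAANNGAA (the interferon-stimulated response element), the NF-kB motif, and TATAAA, which marks the box that positions RNA starts. The Ptgs2 window held 1 match, the palindrome TTGCGCAA of the C/EBP motif, 69 to 62 bases before the start and read on both strands. The C/EBP motif occurred in 9.56% of all 32851 windows of this length, TGACG in 17.8%, TGANTCA in 6.75%, NF-kB in 7.25%, GAAANNGAA in 7.13% and TATAAA in 12.4%. The windows of Ptger2, Ptger4 and the main Pla2g4a start held 0 matches, which says only that these letters are not in these 250 bases. The EP receptor windows differed in base composition. That of Ptger2 had 38.0% GC and 3 CpG, while that of Ptger4 had 66.8% GC and 19 CpG, beside a median of 52.4% GC and 6 CpG over all windows. The Ptgs2 window had 61.6% GC and 13 CpG, and the Pla2g4a window 43.2% GC and 3 CpG. RefSeq windows were found for 9 of the 10 genes. Among those not printed, Hpgds held 1 C/EBP match, Tbxas1 held 1 AP-1 match and overlapping TATA matches, and a second Pla2g4a start held 1 TATA match.

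Pla2g4a, the enzyme that frees arachidonic acid, was higher in PP2A-KO. It lies on the reverse strand of chromosome 1 (chr1:149829618-149961290, GRCm38), beside Ptgs2. Its level was 11.4, 10.96 and 9.80 CPM in PP2A-KO replicates 1 to 3 and 8.91, 8.30 and 7.51 CPM in WT. All PP2A-KO libraries were above all WT libraries, and the difference within each replicate number was nearly the same, at 0.36, 0.40 and 0.38 on the log2 scale. The means were 10.7 ± 0.830 and 8.24 ± 0.703 CPM (SD, n = 3), a 1.299-fold difference (log2 0.38, standard error 0.10, edgeR adjusted p = 0.0144). The call was lost without PP2A-KO replicate 1 (edgeR adjusted p = 0.0561) and without PP2A-KO replicate 2 (edgeR adjusted p = 0.0520).

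Ptgs2, the inducible cyclooxygenase that immune stimuli are known to raise, was not called. The gene spans chr1:150100031-150108227 on the forward strand. It had 14.2, 11.99 and 8.58 CPM in PP2A-KO and 13.3, 7.81 and 5.25 CPM in WT. The groups overlapped, since WT replicate 1 lay above PP2A-KO replicates 2 and 3, and in both genotypes replicate 1 was the highest and replicate 3 the lowest. The means were 11.6 ± 2.85 and 8.77 ± 4.09 CPM (SD, n = 3), and the log2 difference was 0.39 (standard error 0.30, 95% interval -0.28 to 1.06, edgeR adjusted p = 0.335). Compared within replicate numbers, PP2A-KO was higher in 3 of 3, by 0.10, 0.62 and 0.71 on the log2 scale. Blocking on the replicate number gave a log2 fold change of 0.43, and the gene was then called (edgeR adjusted p = 0.00698). With no filter on low counts it was called as well (log2 0.39, edgeR adjusted p = 0.0446). In that fit the log2 value was nearly the same as in the main fit. Only its standard error was smaller, at 0.15 against 0.30. Single libraries moved its unblocked value from 0.13 (edgeR adjusted p = 0.710), without WT replicate 3, to 0.83 (edgeR adjusted p = 0.0173), without WT replicate 1. Without PP2A-KO replicate 1 it was 0.21 (edgeR adjusted p = 0.680).

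Ptgs1, the constitutive cyclooxygenase, had 5.94, 5.33 and 5.85 CPM in PP2A-KO and 7.75, 6.60 and 5.77 CPM in WT. The lowest WT library fell among the PP2A-KO libraries. The log2 fold change was -0.23 (standard error 0.12, 95% interval -0.51 to 0.05, edgeR adjusted p = 0.171) and the gene was not called with the block either (edgeR adjusted p = 0.0759). Its value was -0.11 without WT replicate 1 and -0.33 without WT replicate 3, neither of them called. Platelets are a known site of Ptgs1, and the platelet markers were lower in PP2A-KO, as given above. Their part in the Ptgs1 value was not tested. Of the cyclooxygenase RNA, counted per kb of exon, Ptgs2 made up 67.0%, 65.6% and 55.4% in PP2A-KO and 59.2%, 50.1% and 43.5% in WT. PP2A-KO had the higher share in 3 of 3 replicate numbers, but the groups overlapped, with means of 62.7% ± 6.32 and 51.0% ± 7.87 (SD, n = 3, p = 0.20 in a two-sided exact permutation test over libraries that does not use the replicate numbers and whose smallest possible p is 0.1). With the longest transcript as length, the mean shares were 56.1% in PP2A-KO and 44.2% in WT. Which cyclooxygenase had more RNA in WT thus depended on the length used. The difference between the genotypes did not, at 11.9 points against 11.7. The RNAs Ptgs2os and Ptgs2os2 lie near Ptgs2 on the opposite strand and overlap none of its exons. Ptgs2os2 (chr1:150159043-150164948) had 0.840 ± 0.154 CPM in PP2A-KO and 0.592 ± 0.117 CPM in WT (SD, n = 3, log2 fold change 0.50, edgeR adjusted p = 0.151). Ptgs2os had at most 3 counts in a library.

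**Figure D2:**
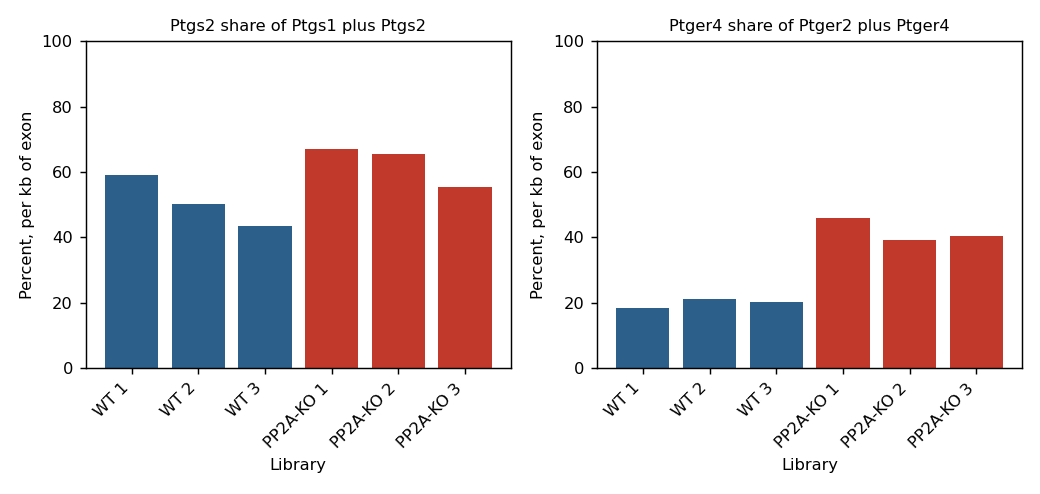
Percent of cyclooxygenase RNA from Ptgs2 (left) and percent of EP2 plus EP4 receptor RNA from Ptger4 (right), per kb of exon, with 1 bar for each of 3 WT (blue) and 3 PP2A-KO (red) libraries. The Ptgs2 share overlaps between genotypes (43.5% to 59.2% in WT and 55.4% to 67.0% in PP2A-KO), while the Ptger4 share runs from 18.2% to 21.02% in WT and from 39.1% to 46.0% in PP2A-KO.

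The genes whose level over the 6 libraries followed that of Ptgs2 most closely were Pappa2, Flrt3, Patj, Ripk3 and Gm32098. Likeness was measured as the root mean square difference of log2 CPM, centered on each gene's mean, and was 0.0712 for Pappa2, 0.14 for Flrt3, 0.158 for Patj, 0.161 for Ripk3 and 0.162 for Gm32098. None of these 5 was called in edgeR, with adjusted p-values from 0.184 for Ripk3 to 0.768 for Gm32098. They were picked for their likeness to Ptgs2, itself not called, so this is no separate result. The likeness covers differences between replicates as well as between genotypes. Pappa2, Flrt3 and Gm32098 had group means of at most 0.588 CPM, so that counting error is a large part of their pattern.

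The terminal prostanoid synthases were not called. Ptges, the inducible prostaglandin E2 synthase, had 3.86, 3.33 and 2.99 CPM in PP2A-KO and 2.998, 3.10 and 3.70 CPM in WT (log2 fold change 0.06, 95% interval -0.27 to 0.39, edgeR adjusted p = 0.776). The replicates ran in opposite orders in the genotypes, and the groups overlapped. Hpgds, the hematopoietic prostaglandin D2 synthase, had 87.4, 76.6 and 97.8 CPM in PP2A-KO and 88.1, 77.1 and 94.6 CPM in WT (log2 fold change 0.01, 95% interval -0.22 to 0.24, edgeR adjusted p = 0.939). Libraries with the same number were close, and replicate 2 was the lowest in both genotypes. Tbxas1, the thromboxane synthase, had 59.6, 62.0 and 66.6 CPM in PP2A-KO and 57.9, 58.5 and 65.2 CPM in WT (log2 fold change 0.05, 95% interval -0.11 to 0.21, edgeR adjusted p = 0.598). The intervals of Hpgds and Tbxas1 were narrower than that of Ptges, the least abundant of the 3.

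Alox5ap, which presents arachidonic acid to 5-lipoxygenase, had 163.3, 171.9 and 167.3 CPM in PP2A-KO and 155.8, 171.7 and 162.3 CPM in WT. The groups overlapped, and the log2 fold change was 0.04 (95% interval -0.11 to 0.18, edgeR adjusted p = 0.688). Alox5, 5-lipoxygenase itself, had only 36, 20 and 7 counts in PP2A-KO and 37, 23 and 11 in WT. Replicate 3 was the lowest in both genotypes. Its log2 fold change of 0.05 had a 95% interval from -1.13 to 1.23 (edgeR adjusted p = 0.950), which takes in a 2-fold change in either direction, and its replicates differed more than its genotypes. The values of Ptges, Hpgds, Tbxas1, Alox5 and Alox5ap were so near 0 that upper-quartile scaling, which moved the median of all genes to -0.09, turned all 5 negative.

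**Figure D3:**
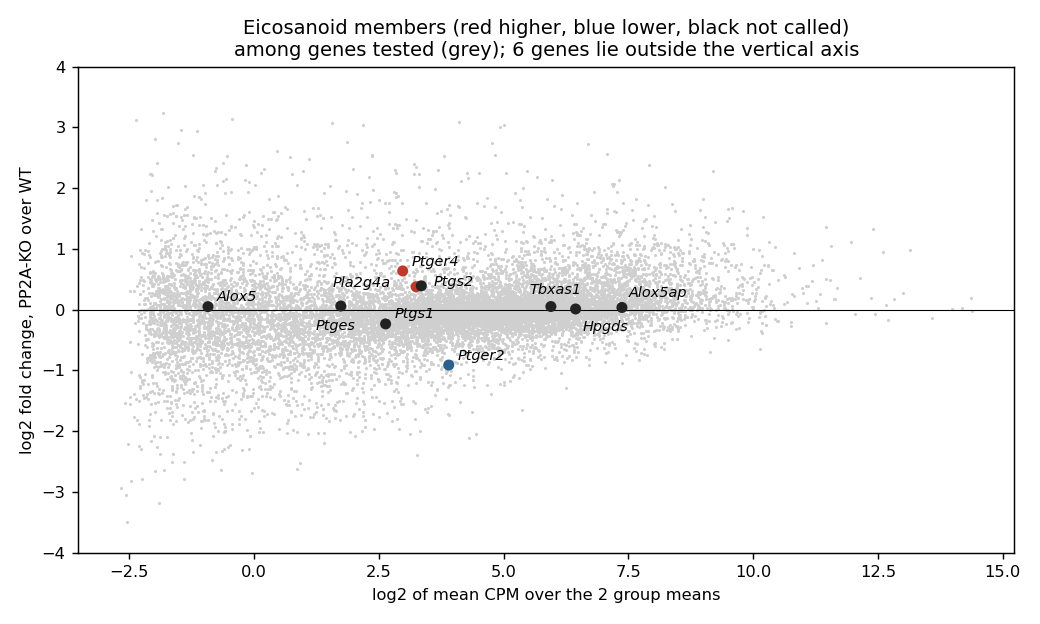
Log2 fold change of PP2A-KO over WT (vertical axis) against log2 of the mean CPM of both genotypes (horizontal axis) for 13674 genes tested (grey; 6 more lie beyond 4 in either direction, outside the axis) and the 10 eicosanoid genes, in red where called higher, blue where called lower and black where not called. Ptger2 at -0.91 and Ptger4 at 0.64 are the farthest from 0 of the 10, and Alox5ap, Hpgds, Tbxas1, Ptges and Alox5 lie between 0.01 and 0.06, where upper-quartile scaling turns the sign.

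The 2 prostaglandin E2 receptors moved in opposite directions. Ptger2 (chr14:44988195-45003820, forward strand), which encodes EP2, had 9.87, 10.3 and 10.9 CPM in PP2A-KO and 17.5, 19.8 and 21.2 CPM in WT. All PP2A-KO libraries were below all WT libraries. The means were 10.4 ± 0.504 and 19.5 ± 1.86 CPM (SD, n = 3), so that PP2A-KO had 0.532 times the WT level (log2 -0.91, standard error 0.09, edgeR adjusted p = 1.34e-04). The stromal markers were also lower in PP2A-KO, and among the WT libraries they summed to 123.3, 131.6 and 85.8 CPM in replicates 1 to 3. Their part in the Ptger2 value was not tested.

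Ptger4 (chr15:5206661-5244187, reverse strand), which encodes EP4, had 10.8, 8.45 and 9.46 CPM in PP2A-KO and 4.99, 6.73 and 6.80 CPM in WT. All PP2A-KO libraries were above all WT libraries, and replicate 1 held both the highest PP2A-KO and the lowest WT value. The means were 9.56 ± 1.16 and 6.17 ± 1.03 CPM (SD, n = 3), a 1.56-fold difference (log2 0.64, standard error 0.14, edgeR adjusted p = 0.00648). Within replicate numbers the difference was 1.11, 0.33 and 0.48 on the log2 scale. Exons of the antisense gene Ttc33 overlap 16.5% of the exon length of Ptger4, and whether counting used strand is not given in the sources used here. Ttc33 itself had a log2 fold change of 0.10 (edgeR adjusted p = 0.287). Both receptors were called, in the same direction, under all 13 alternatives to the fit.

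Counted per kb of exon, Ptger4 made up 46.0%, 39.1% and 40.5% of the RNA of these 2 receptors in PP2A-KO and 18.2%, 21.02% and 20.04% in WT, means of 41.8% ± 3.67 and 19.8% ± 1.42 (SD, n = 3). The shares did not overlap, also with the longest transcript as length (means of 47.3% in PP2A-KO and 23.55% in WT). This ratio was formed after the values of both genes were seen and is given with no test. Of the other prostanoid receptors, Ptger1 and Ptger3, the remaining prostaglandin E2 receptors, had means of at most 0.363 CPM, and the prostacyclin receptor Ptgir had 3.88 ± 0.5002 CPM in PP2A-KO and 3.53 ± 0.562 CPM in WT (SD, n = 3). None of these 3 was called (log2 fold changes -0.47, -0.89 and 0.14, edgeR adjusted p-values 0.283, 0.138 and 0.527). The prostaglandin D2 receptors Ptgdr and Ptgdr2 were at 0 counts in all 6 libraries.

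**Figure D4:**
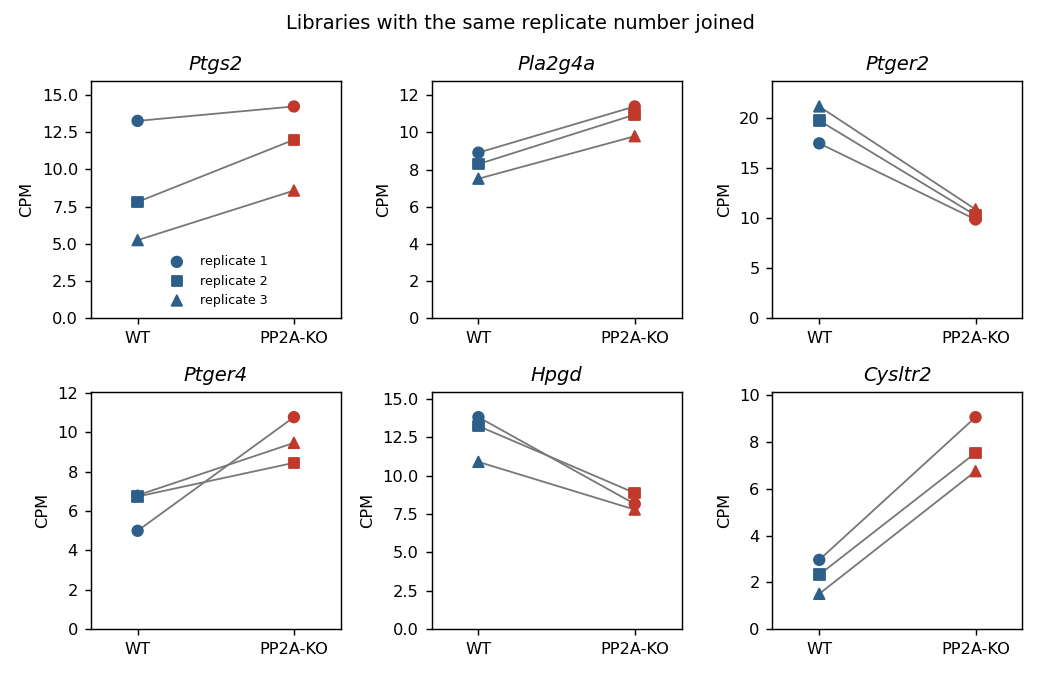
CPM of Ptgs2, Pla2g4a, Ptger2, Ptger4, Hpgd and Cysltr2 in WT (blue) and PP2A-KO (red), with a line joining libraries of the same replicate number (circle 1, square 2, triangle 3). For Ptgs2 the 3 lines rise (0.10, 0.62 and 0.71 on the log2 scale) although the groups overlap, while the lines of Ptger2 and Hpgd fall and those of Pla2g4a, Ptger4 and Cysltr2 rise with no overlap between the genotypes.

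The wider pathway was described with 61 genes of eicosanoid synthesis, sensing and removal, including the 10. Of these, 42 had enough counts to be tested, 6 were higher, 8 lower and 28 not called, beside 18.1% higher and 19.0% lower over all genes tested, and their median log2 fold change was 0.03. In the fit that blocked on the replicate number, 10 were higher and 9 lower, beside 24.4% and 26.4% of all genes tested. The 8 lower genes were 5 without PP2A-KO replicate 1, 5 without PP2A-KO replicate 2 and 4 without WT replicate 2. Leaving out the 10 genes above, 4 of 32 tested were higher and 7 lower. Ptgds, Alox12b, Ptgdr, Ptgdr2 and Oxgr1 were at 0 in every library, and the leukotriene B4 receptors Ltb4r1 and Ltb4r2 had at most 7 and 3 counts.

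Among the phospholipases, 2 of 9 tested were higher and 2 lower, shares near those over all genes. Pla2g4c, a relative of Pla2g4a, had 1.69 ± 0.218 CPM in PP2A-KO and 0.875 ± 0.103 CPM in WT (SD, n = 3), or 0.95 on the log2 scale (edgeR adjusted p = 0.00389). Pla2g6, the calcium-independent phospholipase, was lower, with a log2 fold change of -0.43 (edgeR adjusted p = 0.0142), a call that was lost without PP2A-KO replicate 1, PP2A-KO replicate 2 or WT replicate 2. The secreted phospholipase Pla2g2e was also lower, at -0.72 (edgeR adjusted p = 0.0448), and lost that call without any 1 of the 6 libraries. Pla2g7, the platelet-activating factor acetylhydrolase, was expressed at 248.4 ± 47.8 and 192.5 ± 37.0 CPM (SD, n = 3) and was called with the block (log2 0.37, edgeR adjusted p = 2.58e-05) but not without it (0.112). The secreted Pla2g5 was called lower with the block at an edgeR adjusted p of 0.04997, against 0.115 without it.

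Of the 8 terminal synthases and related reductases tested, 1 was higher, beside 18.1% of all genes tested. It was Akr1b3, an aldose reductase that can make prostaglandin F2α, with 132.2 ± 3.63 CPM in PP2A-KO and 106.4 ± 3.82 CPM in WT (SD, n = 3, log2 fold change 0.31, edgeR adjusted p = 0.00323). Of the 9 genes of lipoxygenases and leukotriene synthesis tested, 1 was lower, beside 19.0% of all genes tested. It was Lta4h, which makes leukotriene B4, with 50.4 ± 3.38 and 62.6 ± 1.71 CPM (SD, n = 3, log2 -0.31, edgeR adjusted p = 0.00493). Ltc4s, which makes leukotriene C4, was called higher with the block (log2 0.37, edgeR adjusted p = 0.0138) but not without it (0.36, edgeR adjusted p = 0.120). Mgst2, a further enzyme that can make leukotriene C4, was called with the block at an edgeR adjusted p of 0.0491, against 0.251 without it.

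Both tested leukotriene receptors, which sense the cysteinyl leukotrienes, were higher in PP2A-KO, beside 18.1% of all genes tested. A list of 2 genes gives little to read against that share. Cysltr2 had 385, 249 and 282 counts in PP2A-KO and 147, 101 and 63 in WT. No PP2A-KO library came near the WT range after scaling, with means of 7.79 ± 1.18 and 2.26 ± 0.730 CPM (SD, n = 3), a 3.42-fold difference (log2 1.77, edgeR adjusted p = 3.22e-04). Cysltr1 had 43.6, 39.5 and 39.6 CPM in PP2A-KO and 31.6, 21.7 and 21.5 CPM in WT (log2 0.71, edgeR adjusted p = 0.00342). WT replicate 1 stood above the other WT libraries but below all PP2A-KO libraries. Mast cells are a known site of both receptors and of Ltc4s, and Hdc, the main contributor to the mast cell and basophil marker sum, was higher in PP2A-KO at 17.1 ± 3.05 against 6.88 ± 2.00 CPM (SD, n = 3), while Kit was not called (log2 -0.15, edgeR adjusted p = 0.683). Among the markers with few counts, Prss34 had 14, 1 and 8 counts in PP2A-KO and 3, 0 and 0 in WT. Cpa3 had 8, 2 and 1 counts in PP2A-KO and 0, 2 and 0 in WT, and Ms4a2 had 4, 2 and 0 in PP2A-KO and 0 in all WT libraries. Mcpt8 had 5, 3 and 2 counts in PP2A-KO and 3, 3 and 0 in WT. Fcer1a and Tpsab1 were at 0 in PP2A-KO and had 1 count each, in WT replicate 2 and WT replicate 3. The part of such cells in these results was not tested.

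Of the 7 genes of transport and breakdown tested, 4 were lower and 0 higher, beside 19.0% and 18.1% of all genes tested. Slco2a1, the prostaglandin transporter, had 19, 16 and 21 counts in PP2A-KO and 57, 56 and 54 in WT, well apart at a low level (log2 -1.37, edgeR adjusted p = 8.75e-04). Hpgd, the dehydrogenase that inactivates prostaglandin E2, had 8.15, 8.87 and 7.79 CPM in PP2A-KO and 13.8, 13.2 and 10.9 CPM in WT (log2 -0.62, edgeR adjusted p = 0.00190). Ptgr1 and Ptgr2, reductases that act on the products of Hpgd, were lower by less, at -0.21 each (edgeR adjusted p = 0.0453 and 0.0159). The Ptgr1 call was lost in 7 of 13 alternatives, and the Ptgr2 call without PP2A-KO replicate 2 and without WT replicate 2. Exons of the antisense gene Gm47484 overlap 32.0% of the exon length of Ptgr2. Stromal markers were lower in the same libraries, as given above, and their part in these values was not tested.

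**Figure D5:**
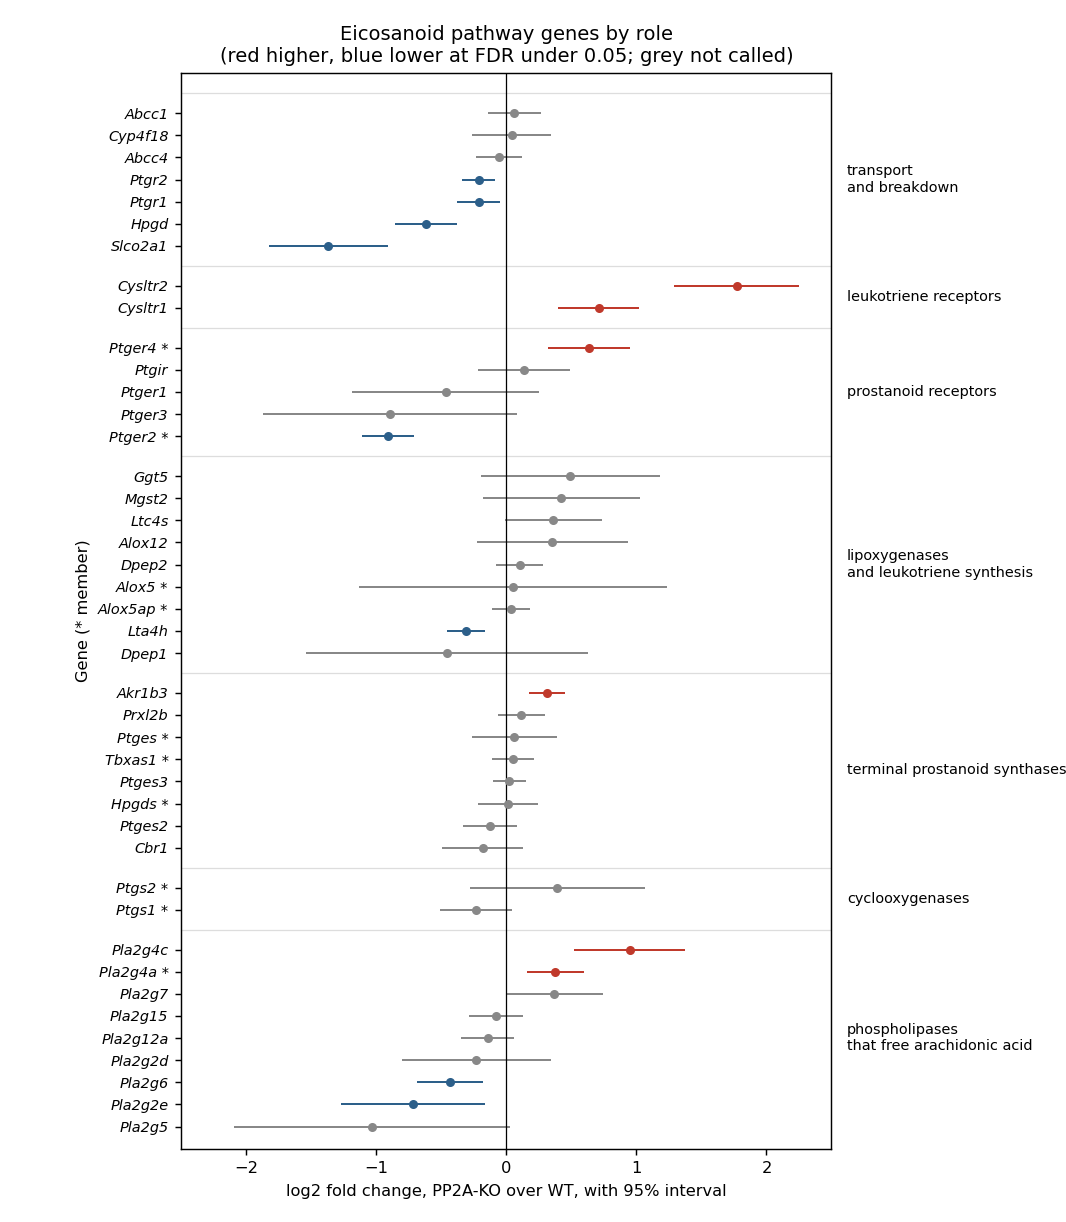
Log2 fold change of PP2A-KO over WT with its 95% interval for the 42 tested eicosanoid genes, grouped by role, in red where called higher, blue where called lower and grey where not called. The 2 leukotriene receptors lie to the right of 0, the 4 called genes of transport and breakdown to the left, and Ptger2 (-0.91) and Ptger4 (0.64) on opposite sides, while grey genes near 0 such as Ptges, Hpgds, Tbxas1, Alox5 and Alox5ap turn sign with upper-quartile scaling.

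EP2 and EP4 are known to raise cAMP, and a list of 12 genes known to rise with cAMP was read beside them. The list was chosen with earlier results of these data known, so its count is not a test against the share over all genes. Of the 11 tested, 7 were higher in PP2A-KO and 0 lower, beside 18.1% and 19.0% of all genes tested, and their median was 0.67 on the log2 scale. The largest were Il10, an anti-inflammatory cytokine, with 23.1 ± 3.09 against 6.92 ± 2.34 CPM (SD, n = 3, log2 1.73, edgeR adjusted p = 3.10e-04), the nuclear receptor Nr4a3 (log2 1.11), the cAMP phosphodiesterase Pde4b (1.06), the phosphatase Dusp1 (1.05) and the AP-1 subunit Fos (0.81). Crem and Nr4a1 were higher as well. Nr4a2, Pde4d, Per1 and Sik1 were not called. Other stimuli also raise many of these genes, and cAMP was not measured.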

How the data were processed

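The authors deposited 1 table of raw counts, the whole number of reads on each of 55453 genes of mm10 in each of the 6 libraries, with no normalization. The submitters' processing notes name fastp 0.20.0, kallisto 0.46.1, STAR 2.7.1a, HTSeq 0.11.2, edgeR 3.34.0 and limma 3.48.3, with no role or order. Annotation release and strand setting are not given in the sources used here, so reads on exons shared with antisense genes could have been counted for either gene.

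Genotype and replicate number came from the labels. The analysis used edgeR 4.0.16 under R 4.3.3. filterByExpr (minimum count 10, minimum total 15) left 13680 genes, which were scaled by TMM and tested for genotype with glmQLFit and glmQLFTest. The p-values were adjusted over all of them by Benjamini-Hochberg. CPM used the TMM factors. The floor was 3 counts and covers counting error only, since PCR copies were not removed by molecular identifiers. Gene models were those of GENCODE release 21 of the mouse (M21, GRCm38), and promoter windows those of RefSeq (GRCm38.p6). The script of the test was tested on simulated data.

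Both genotypes carry replicate numbers 1, 2 and 3. The deviations of same-numbered libraries from their group means correlated at 0.289, 0.148 and 0.337 over genes, and those of all other pairs at -0.0312 to -0.258. Deviations within a group of 3 sum to 0, so positive values for the same numbers push the other pairs down. The numbers were therefore taken as a possible pairing only. The main fit left them out, and the blocked value is given where it changed a call. What the numbers share is not stated.

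The 13 alternatives were DESeq2 1.42.0, limma-voom (limma 3.58.1), the replicate block, scaling by RLE or upper-quartile factors, testing without a filter or only genes with 10 counts or more in all libraries, and leaving out each library in turn. The 10 genes, the pathway, cAMP and marker lists and the motifs were chosen with earlier results of these data known. Named beyond the 10 were, in each role, up to 3 called genes with the largest change, up to 5 called genes of the cAMP list, the RNAs near Ptgs2, the 5 genes most like Ptgs2, and Ppp2ca. Ptgr2, Pla2g5, Pla2g7, Ltc4s, Mgst2, Crem, Nr4a1, the uncalled genes of the cAMP list, Ttc33, the uncalled receptors, genes at or near 0 and the marker genes were named after their values were seen.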

Additional observations from a re-analysis of the deposited data

How the results depend on the processing

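Ptger2 and Ptger4 kept their direction and their call under all 13 alternatives, as did Pla2g4c, Akr1b3, Lta4h, Cysltr1, Cysltr2, Slco2a1 and Hpgd. With the replicate block, 10 pathway genes were higher in place of 6. Pla2g5, Pla2g7, Ptgs2, Ltc4s and Mgst2 gained a call with it, and it changed no other call in the pathway list. With upper-quartile scaling the log2 fold changes of Ptges (-0.00480), Hpgds (-0.0526), Tbxas1 (-0.0122), Alox5 (-0.0107) and Alox5ap (-0.0275) turned negative, as that of Alox5 did with limma-voom (-0.12). These factors moved the median of all genes to -0.09. Over the 6 fits that each left out 1 library, 1 to 3 of the 10 genes and 5 to 9 pathway genes were higher, 4 to 6 pathway genes were lower, and the log2 fold change ranged from -0.0542 to 0.158 for Ptges, from -0.0747 to 0.0971 for Hpgds and from -0.50 to 0.50 for Alox5. The cause was not tested. Low counts limit Alox5, Dpep1, Ptger1, Ptger3 and Pla2g5 among others. Fits without 1 library assume that its group varies like the other, and RNA levels say nothing of lipid levels or enzyme activity.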
